A study of Mus musculus with 12 samples.

Results

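The genes Apoa1, Apoa2, Apoa4, Apoa5, Apob, Apoc1, Apoc2, Apoc3, Apoe and Apoh encode the apolipoproteins, the protein components of plasma lipoproteins, and were followed across 12 mouse liver arrays. Members were all probe sets whose single gene symbol in the platform annotation was one of these names. This gave 14 probe sets for 10 genes, out of 12393 genes with a probe set of 1 symbol. Apoa1 had 4 probe sets, Apoa4 had 2 and each of the other genes had 1.

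Liver RNA came from male mice of 6 weeks that carried an inducible, hepatocyte-specific transgene for human alpha1-antitrypsin, a secreted protease inhibitor, in its wild type form (M) or as the mutant Z form. Mice in the groups called M off and Z off (titles M1 and Z1) drank doxycycline at 40 ug/mL from conception until they were killed and did not express the transgene. M on and Z on mice (titles M4 and Z4) received no doxycycline and expressed it. Each group held 3 biological replicates, and all 4 groups carried a transgene, so none was a liver without one. Transgene expression cannot be told apart from the absence of doxycycline, and the Z and M forms cannot be told apart from other differences between the lines. The annotation used named no probe set for the human transgene, so the labels were not checked against its level.

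Apolipoproteins hold lipid in particles that can travel in blood, and liver and intestine make most of them. Apob is the scaffold of the triglyceride-rich particles that hepatocytes secrete, whereas Apoa1 and Apoa2 are the main proteins of high density lipoprotein (HDL). The smaller exchangeable proteins move between particles and set how fast their lipid is broken down or taken up: Apoc2 activates lipoprotein lipase, Apoc3 and Apoc1 slow clearance, Apoa5 promotes it, and Apoe is a ligand of the receptors that take up remnants. Misfolded Z protein is retained in the endoplasmic reticulum of hepatocytes, the compartment in which Apob particles are also assembled.

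The liver identity of the samples was checked on marker genes. The 7 measured hepatocyte markers of 8 (Alb, Ttr and others) summed to signals of 73480 to 109739, and none of their mean signals lay below the median of all probe sets. Of the small intestine list, 5 of 8 genes had a probe set and 4 of these had a mean below that median; the exception was Fabp2, the intestinal fatty acid binding protein. The list summed to 588 to 1268 and did not separate on from off mice. Its sums, mostly the signal of Fabp2, were apart between the lines in each state. They were 809 to 1268 in M off and 637 to 799.5 in Z off. In M on they were 902 to 1232, and in Z on 588 to 828.5. Fabp2 itself overlapped in the off groups, at 738 to 1224 in M off and 581 to 758 in Z off. It read 823 to 1191 in M on and 546 to 775 in Z on. Of all single probe sets, 15.1% had groups apart in Z off against M off and 12.1% in Z on against M on. Kupffer cell markers, of interest because macrophages also make Apoe, summed to 1825 to 2520.2 over all arrays, with 10 of 10 genes measured. Stellate cell markers summed to 1979 to 2349 in the off groups and 1268 to 1918 in the on groups. These sums were mostly the signals of Dcn, Col3a1, Reln and Rgs5. Of the 8 stellate genes, 7 were lower and 1 higher in Z on against Z off, and likewise in M on against M off. None passed the adjusted threshold described below in either comparison. Of all single probe sets, 11.8% had groups apart in Z on against Z off and 10.5% in M on against M off. Of 4 erythroid genes, 2 had a probe set. Alas2, the heme synthesis enzyme of red cell precursors, read 1119 to 1456 in Z off and 137 to 307 on the other arrays. The other, Hba-a1, was dim and did not set Z off apart. It read 2.3 to 35.7 in Z off, 9.9 to 37.6 in Z on, 0.7 to 5.3 in M off and 5.1 to 21.1 in M on. In whole liver, fewer cells of a type and less RNA per cell cannot be told apart, and the part of these values in the results below was not tested.

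Apoa1, Apoc3, Apoa4 and Apoa5 are neighbours on mouse chromosome 9, and Apoc2, Apoc1 and Apoe form a cluster with Apoc4 on chromosome 7; Apoa2, Apoh and Apob lie alone on chromosomes 1, 11 and 12. Promoter sequences from RefSeq (build GRCm38.p6) were available for 8 of the 10 genes. Shown are the 250 bases before the transcript start for Apob and Apoa4, the genes whose signals varied most, and for Apoa1 and Apoa5, which lie in its cluster and varied less. All 4 are written 5′ to 3′ on the plus strand, which is the genes' own, with capitals marking matches to a TATA box (TATAAA) or an E box (CACGTG). They lie at chr12:7977427-7977676 (Apob), chr9:46240594-46240843 (Apoa4), chr9:46228380-46228629 (Apoa1) and chr9:46268358-46268607 (the upstream start of Apoa5).
Apob: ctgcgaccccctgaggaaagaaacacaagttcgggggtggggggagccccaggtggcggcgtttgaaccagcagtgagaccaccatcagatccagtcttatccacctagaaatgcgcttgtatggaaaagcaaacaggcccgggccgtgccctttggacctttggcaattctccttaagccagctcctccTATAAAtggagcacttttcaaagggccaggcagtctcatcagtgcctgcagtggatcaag
Apoa4: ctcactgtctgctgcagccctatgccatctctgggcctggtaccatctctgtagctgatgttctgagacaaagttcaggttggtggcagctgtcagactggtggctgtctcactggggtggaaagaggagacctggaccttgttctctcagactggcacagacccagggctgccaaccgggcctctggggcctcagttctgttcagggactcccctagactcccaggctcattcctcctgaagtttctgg
Apoa1: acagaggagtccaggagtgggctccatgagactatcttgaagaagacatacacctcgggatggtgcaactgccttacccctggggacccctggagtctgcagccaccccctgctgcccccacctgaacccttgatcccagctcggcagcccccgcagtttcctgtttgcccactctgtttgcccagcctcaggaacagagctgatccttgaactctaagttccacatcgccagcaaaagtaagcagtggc
Apoa5: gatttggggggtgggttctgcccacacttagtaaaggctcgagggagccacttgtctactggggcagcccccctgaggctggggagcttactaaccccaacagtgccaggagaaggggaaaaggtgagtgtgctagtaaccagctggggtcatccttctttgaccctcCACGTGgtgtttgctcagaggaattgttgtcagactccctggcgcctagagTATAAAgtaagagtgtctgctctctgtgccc

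Both strands were searched for those motifs, for the nuclear receptor motif AGGTCA, for an HNF4 site spelled CAAAGTCCA and for an HNF1 site. Counted from the base before the start as -1, the Apob window held TATAAA at -60 to -55. The Apoa5 window held TATAAA at -31 to -26 and CACGTG at -82 to -77. The Apoa1 and Apoa4 windows held none of these letters. Of 32851 mouse windows of the same length, 12.4% held TATAAA, 6.02% held CACGTG, 14% held AGGTCA, 0.384% held the HNF4 spelling and 0.00913% the HNF1 site. Elsewhere in the family, AGGTCA matched in a window of Apoa2, of Apoc2 and of Apoh, and TATAAA in a window of Apoa2 and of Apoe. The HNF4 spelling and the HNF1 site matched in no window of the family. With spellings this rare and 12 windows, that absence tells nothing about binding of HNF4 or HNF1 to these genes. Apoc1 and Apoc3 had no promoter sequence and were not searched.

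No apolipoprotein probe set differed between groups in any of 7 comparisons. With limma fitted to the log2 signals of all 12 arrays and Benjamini-Hochberg adjustment over 22626 probe sets, 0 of 14 passed an adjusted p of 0.05 in Z on against Z off, where 0.0133% of all probe sets did. The count was also 0 of 14 in M on against M off (0% of all), in the difference between those responses (0%), in Z on against M on (0.00884%), in Z off against M off (0.0707%), in Z against M averaged over states (0.0884%) and in on against off averaged over lines (0.00884%). The counts of members at an unadjusted p under 0.05 were 0 in all 7 comparisons as well, against 6.29%, 5.18%, 5.18%, 6.85%, 7.73%, 9.09% and 5.84% of all probe sets in the same order. Failing this test does not show equal levels, and the number of arrays limits the precision, so the 95% interval of each difference is given below. Of the 14 differences, 11 had an interval inside 1 log2 unit either way in Z on against Z off and 12 in M on against M off.

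**Figure D1:**
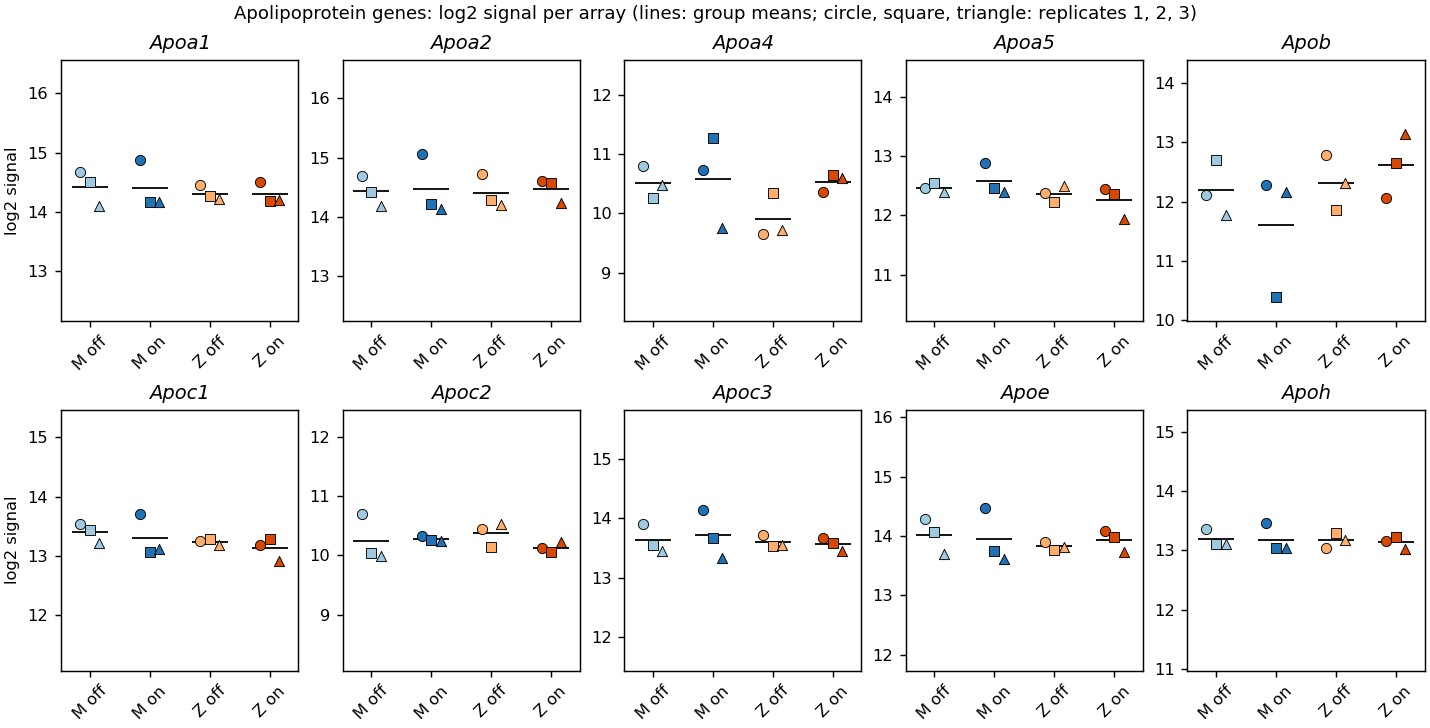
Log2 signal of each of the 10 apolipoprotein genes (for genes with several probe sets, that of the highest mean) on each array, with groups along the horizontal axis and horizontal lines at group means. Circles, squares and triangles are replicates 1, 2 and 3, and every panel spans the same number of log2 units. Groups overlap for most genes; Apob and Apoa4 scatter most, with M on replicate 2 lowest for Apob and highest for Apoa4.

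Apoa1, the protein that builds HDL and activates cholesterol esterification, was among the steadier genes between groups. The first of its probe sets read 25978, 23261 and 17559 in M off and 30070.1, 18409 and 18428 in M on. The Z off arrays gave 22384, 19657 and 18984, against 23125, 18687 and 18852 for Z on. All 4 groups overlapped, and in each the first replicate was the highest. The log2 difference was -0.012 in Z on against Z off (95% interval -0.55 to 0.53) and -0.019 in M on against M off (-0.56 to 0.52). The other 3 Apoa1 probe sets followed the same arrays, with Pearson r between 0.918 and 0.979 among the 4, and differed by -0.17 to -0.07 in Z on against Z off. Probe sets whose name ends in x_at, 3 of the 4 here, hold probes that can match other transcripts.

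Apoa2, the second most abundant HDL protein in plasma, read 22367 ± 3946 in M off, 23710.3 ± 8979.9 in M on, 21915 ± 4423 in Z off and 22844 ± 3038 in Z on (mean ± SD, n = 3 in each group here and below). M on held its lowest array, 18006, and its highest, 34061. The log2 difference was 0.07 in Z on against Z off (-0.56 to 0.70) and 0.04 in M on against M off (-0.59 to 0.66). Apoa2 thus varied far more within M on than between group means, which spanned 0.07 log2 units.

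Apoa4, a protein of intestinal and hepatic particles that is linked to lipid absorption and satiety, had the lowest group mean in Z off on both of its probe sets. The first of these, an x_at set, read 803, 1303 and 839.6 in Z off and 1310, 1603 and 1555 in Z on. In M off it read 1772, 1233 and 1430, and in M on 1707, 2473 and 863. The Z on arrays all lay above the Z off arrays, although the closest pair, 1303 and 1310, was nearly level, and the M on arrays reached from within the Z off range to the highest value of all. This was the only member with groups that did not overlap in Z on against Z off, 1 of 14, where 11.8% of all probe sets had such groups. The log2 difference was 0.63 (SE 0.36, 95% interval -0.18 to 1.45, limma adjusted p = 0.847).

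The second Apoa4 probe set tracked the first over the 12 arrays (r = 0.939). Its signals were 420, 834 and 649 in Z off and 784, 883 and 1159 in Z on. Here those groups overlapped, and the difference was 0.61 (SE 0.51, -0.54 to 1.75, limma adjusted p = 0.887). In M off it read 1387, 735 and 1030, and in M on 988, 2431 and 527, so the highest array was again M on replicate 2, and the lowest was Z off replicate 1 on both probe sets. Z off lay below M off by 0.61 log2 units on the first probe set (-1.42 to 0.20, limma adjusted p = 0.741) and by 0.74 on the second, a difference of -0.74 (-1.88 to 0.41, adjusted p = 0.782). M on against M off gave 0.07 and 0.09. The gap between Z off and the next group mean on the first probe set exceeded the within-group SD of 0.46, the only such gap between neighbouring group means among the 14 probe sets; Z on, M off and M on lay within that SD of each other. The differing responses of the Z and M lines, 0.56 (-0.59 to 1.71) on the first probe set, were not called.

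Values that moved with the same contrast as Apoa4 are given beside it. The control signal at the 3′ end of the small-subunit ribosomal RNA was 94 to 373 on the Z off arrays and 914 to 1492 on the Z on arrays. The 3′ to 5′ signal ratio of actin, a measure of RNA integrity and labelling, was 2.18 to 2.53 in Z off and 2.44 to 5.16 in Z on. The part of these values in the Apoa4 difference was not tested.

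Apoa5, a liver protein that lowers plasma triglyceride, read highest in M on and lowest in Z on. Its signals were 7550, 5652 and 5357 in M on and 5589, 5259.6 and 3936 in Z on, which overlapped. Apoa5 in Z on against M on differed by -0.33 (SE 0.20, -0.78 to 0.12, limma adjusted p = 0.821). M off averaged 5656 ± 288 and Z off 5291 ± 482, so all neighbouring group means lay closer than the within-group SD of 0.20 log2 units. Leaving out Z on replicate 3 gave -0.17, and leaving out M on replicate 1 gave -0.18.

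Apob, the structural protein of very low density lipoprotein, had the widest span of group means in the family, 1.01 log2 units, and the widest scatter within groups. In M off its signals were 4415, 6690.4 and 3487. M on read 4974, 1341 and 4566, where the second replicate stood far below every other array. Z off read 7068, 3721 and 5083, and Z on 4287, 6433 and 8986, the last being the highest of all 12. The highest array was 6.70 times the lowest. The within-group SD of 0.68 log2 units exceeded the gap between every pair of neighbouring group means, which ran M on, M off, Z off, Z on.

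Z on was above M on by 1.01 for Apob (SE 0.52, -0.16 to 2.17), the lowest unadjusted p of any member in any comparison (0.0823, limma adjusted p = 0.781). Without M on replicate 2 the difference was 0.40, and without M on replicate 1 it was 1.34. M on against M off gave -0.59 (-1.75 to 0.58), which became 0.02 without M on replicate 2. Z on against Z off gave 0.30 (-0.87 to 1.46), and 0.04 without Z on replicate 3. The on against off differences of Apob in both lines therefore rested on single arrays. The difference between Z on and M on also changed in size with single arrays, but kept its sign in every setting (0.40 to 1.34). On M on replicate 2 the actin 3′ control signal was 1273, against 2749 to 7542 on the other 11 arrays, while its actin 3′ to 5′ ratio of 3.78 lay within the range of the others; the part of this array's quality in the result was not tested.

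The C apolipoproteins differed little between groups. Apoc1, which hinders particle uptake, averaged 10843 ± 1206 in M off, 10298 ± 2728 in M on, 9653 ± 339.5 in Z off and 9027 ± 1215 in Z on. Its difference was -0.11 in Z on against Z off (-0.58 to 0.37). Apoc3, an inhibitor of lipase action and remnant uptake, averaged 12835 ± 2222, 13771 ± 3872, 12473 ± 891 and 12174 ± 939 in the same order. Its differences were -0.04 in Z on against Z off (-0.54 to 0.47) and 0.08 in M on against M off (-0.43 to 0.58).

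Apoc2, the cofactor of lipoprotein lipase, read 1660, 1051 and 1016 in M off and 1276, 1223 and 1216 in M on. Z off gave 1391, 1124 and 1482, and Z on 1111, 1059.6 and 1196. Every Z on array lay below every M on array, the only member for which those groups did not overlap, 1 of 14 against 12.1% of all probe sets. The gap was small: the log2 difference was -0.14 (SE 0.22, -0.63 to 0.34, limma adjusted p = 0.938). Apoc2 differed by -0.24 in Z on against Z off (-0.72 to 0.24), where the groups overlapped.

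Apoe, made by hepatocytes and macrophages and bound by the low density lipoprotein receptor, averaged 16817 ± 3428 in M off, 16309 ± 5566 in M on, 14493 ± 680.1 in Z off and 15707 ± 1999 in Z on. The differences were 0.11 in Z on against Z off (-0.46 to 0.68), -0.08 in M on against M off (-0.65 to 0.50) and -0.19 in Z off against M off (-0.77 to 0.38). Apoh, also called beta-2-glycoprotein I, a plasma protein that binds anionic phospholipid, had the smallest spread over arrays on the deposited scale. Its averages were 9414 ± 977, 9372 ± 1670.4, 9239 ± 801 and 9013 ± 619.5 in M off, M on, Z off and Z on. Its highest array was 1.36 times its lowest, and 1.31 times after quantile normalization, where Apoa2, Apoe, Apoc3 and 3 of the 4 Apoa1 probe sets spread less. Its difference in Z on against Z off was -0.03 (-0.44 to 0.37).

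**Figure D2:**
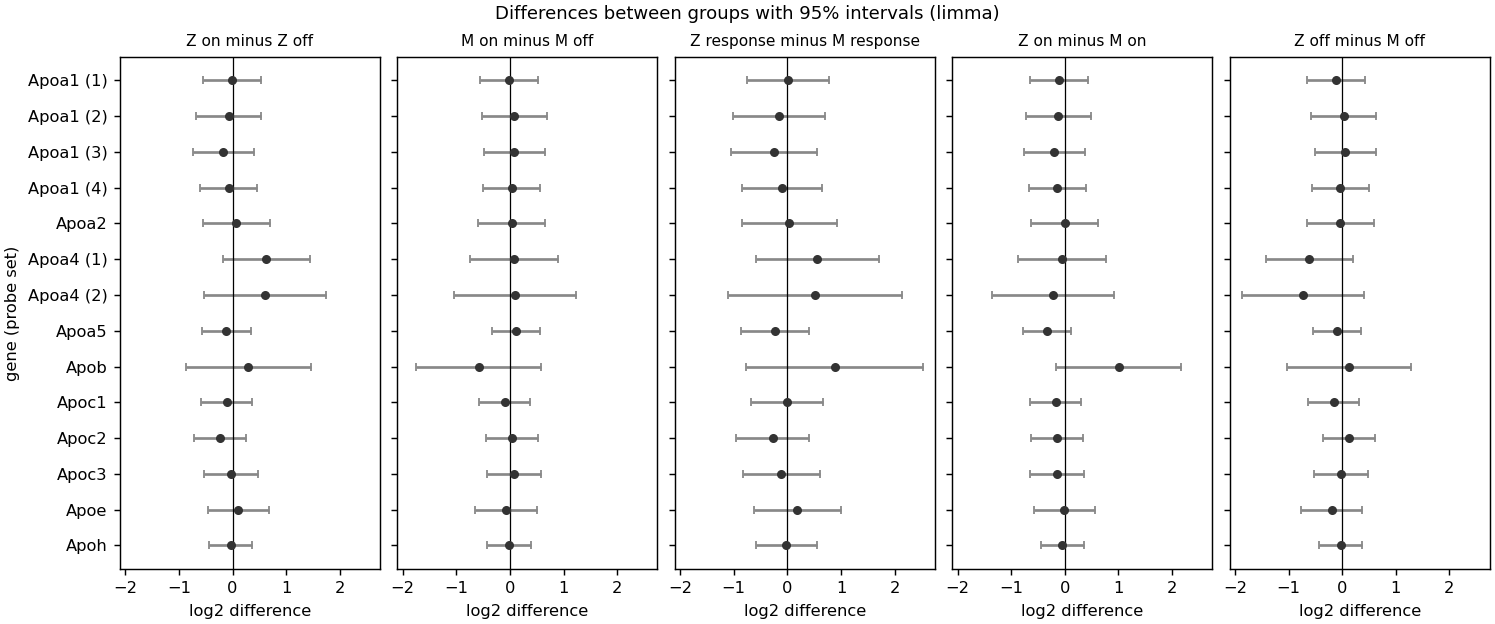
Log2 difference between groups (points) with 95% intervals (bars) from limma for the 14 apolipoprotein probe sets in 5 comparisons; the numbers in parentheses tell probe sets of the same gene apart. Every interval crosses 0; the largest difference is that of Apob in Z on against M on, 1.01.

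The direction of the small differences was not stable. Of the 98 differences (14 probe sets in 7 comparisons), 29 kept their sign under every alternative tried and 69 changed it under some. The alternatives included leaving out each array in turn as well as other processing. On the deposited scale, 13 of 14 probe sets were lower in Z against M averaged over states. Their median was -0.09 beside 0.02 for all probe sets, of which 52.1% were higher. After quantile normalization 10 of 14 were lower. Probe sets of the same gene moved together, so the 14 were not separate observations. By gene, 9 of 10 were lower as deposited. In Z off against M off 10 of 14 probe sets and 8 of 10 genes were lower, while 52.8% of all probe sets were higher. After quantile normalization 7 of 14 were lower there. Differences whose sign held throughout included those of Apoa4 on both probe sets in Z on against Z off and in Z off against M off, of Apob in Z on against M on and of Apoa5 in Z on against M on.

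Apob and Apoa4 also scattered widely for probe sets of their level. Among 414 probe sets with a mean within 1 log2 unit of Apob, 0.966% had a within-group SD as large. For Apoa4 the shares were 4.6% of 1218 probe sets for the first probe set and 1.24% of 1616 for the second. For Apoh the share was 64.4% of 163, and for the remaining members it was 9.09% to 34.8%.

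The abundant members also varied together from array to array. M on replicate 1 was the highest array for 10 of the 14 probe sets and for 7 of the 10 genes. Of 45 pairs of genes, 16 had a Pearson correlation over the 12 arrays with an adjusted permutation p under 0.05, all positive, and 7 had such a Spearman correlation (100000 permutations, two-sided, adjusted over the 45 pairs). Apoa1 and Apoe correlated at r = 0.934 (permutation p = 8e-05, adjusted 0.00255; rho = 0.874, p = 0.00045, adjusted 0.0101), and at 0.797 without M off replicate 1 and M on replicate 1. Of the 16 pairs, 8 kept r over 0.6 once the pair of arrays farthest from the median was left out. When the replicate number was held fixed (all 13824 arrangements within numbers, an alternative chosen after seeing the data), 0 of 45 pairs passed; Apoa1 and Apoe then correlated at 0.835 (exact permutation p = 0.0114, adjusted 0.307).

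The top of the signal scale moved on the same arrays. The mean log2 signal of the brightest 1% of probe sets outside the family, 215 in number, was 12.53 to 12.85 and was highest on replicate 1 in all 4 groups. Its relation to each of the 10 genes over 12 arrays was tested by permutation (10 relations, adjusted over them). Most of the 10 genes were bright themselves, with mean log2 signals from 12.19 (Apob) to 14.44 (Apoa2). Only Apoa4 (10.38) and Apoc2 (10.25) were dimmer. The part of signal level in these relations was not tested. Apoe followed it at r = 0.956 (permutation p = 1e-05, the smallest that 100000 permutations can give, adjusted 0.0001; rho = 0.951, p = 2e-05, adjusted 0.0002) and Apoa1 at r = 0.951 (permutation p = 2e-05, adjusted 0.0001; rho = 0.888, p = 0.00033, adjusted 0.0011). Without Z on replicate 1 and M on replicate 1 these were 0.938 and 0.921. For deviations from group means, which leave out any difference between groups, r was 0.973 and 0.968. Within replicate numbers r was 0.909 for Apoe (exact permutation p = 0.00101, adjusted 0.0101) and 0.831 for Apoa1 (exact permutation p = 0.0081, adjusted 0.0405).

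Apoa2 (r = 0.925), Apoc3 (0.885), Apoc1 (0.801), Apoh (0.731) and Apoa5 (0.671) followed the top of the scale as well, with adjusted permutation p-values for r of 0.00057, 0.00085, 0.0032, 0.012 and 0.030. None of these 5 passed within replicate numbers (r 0.594 to 0.719, adjusted exact permutation p 0.120 to 0.183). Their rank correlations were 0.909, 0.804, 0.706, 0.608 and 0.378, of which the last 2 had adjusted permutation p-values of 0.065 and 0.324. The relation of Apoa5 rested on the pair of outer arrays, since r was 0.350 without them. Apoc2 (r = 0.301), Apob (0.213) and Apoa4 (0.126) had adjusted permutation p-values of 0.430, 0.550 and 0.694.

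Quantile normalization, which gives every array the same distribution and so fixes the top of the scale by construction, left 0 of 45 pairs past the adjusted threshold, with a lowest adjusted permutation p of 0.577. On that scale the highest array of Apoa2 was 1.11 times the lowest, against 1.89 as deposited, and that of Apoe 1.17 times against 1.82. Apob and Apoa4 kept their spread: 7.0 times against 6.70 for Apob, and 3.08 against 3.08 and 5.94 against 5.79 for the 2 probe sets of Apoa4. What gave rise to the shared variation was not tested.

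**Figure D3:**
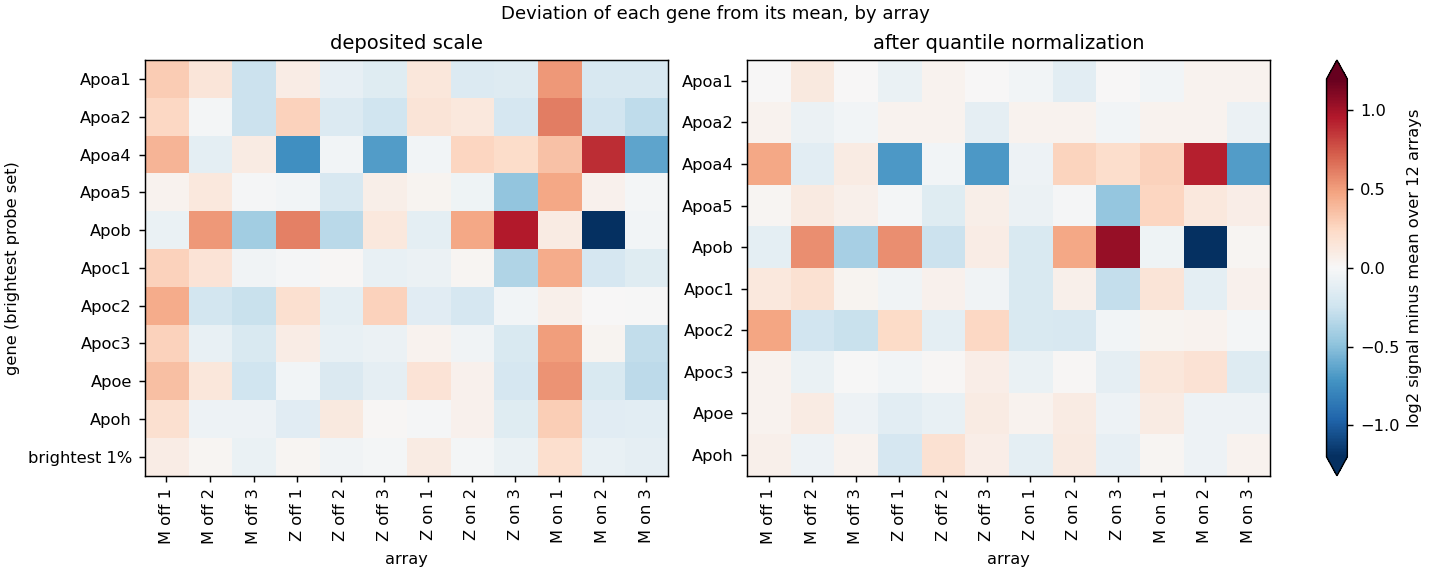
Log2 signal minus the gene's mean over the 12 arrays, as colour, for each of the 10 genes (rows) on each array (columns), on the deposited scale at left and after quantile normalization at right; the bottom row at left is the mean of the brightest 1% of probe sets outside the family, and the end colours also stand for larger deviations. The red columns of M off 1 and M on 1 at left fade at right, while the strong cells of Apob and Apoa4 remain.

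Apob and Apoa4 sat at opposite ends on M on replicate 2, where Apob was lowest and Apoa4 highest. Over the 12 arrays their correlation was r = -0.50 (permutation p = 0.0999, adjusted over 45 pairs 0.204) and rho = -0.38 (permutation p = 0.220, adjusted 0.494). Without Z off replicate 1 and M on replicate 2, r was 0.14, so the relation rested on those arrays.

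**Figure D4:**
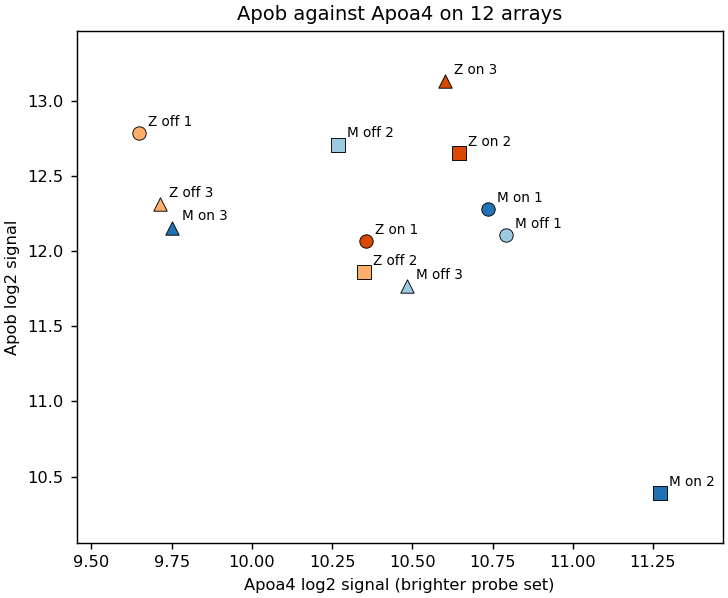
Apob log2 signal (vertical axis) against Apoa4 log2 signal (horizontal axis, probe set with the higher mean) on the 12 arrays, coloured by group. M on replicate 2 sits alone at the lower right, and the other 11 arrays show no clear slope.

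The genes whose pattern was most like that of Apob were found among 10378 candidates by Pearson r over the 12 arrays. They were Ddx3x (r = 0.883), an RNA helicase, Golga4 (0.877), a Golgi-tethering protein, Eprs (0.869), the glutamyl-prolyl tRNA synthetase, Rraga (0.865), a GTPase of amino acid sensing, and Eif2s2 (0.852), a translation initiation subunit. All 5 had their lowest signal on M on replicate 2, as Apob did; Ddx3x read 87.2 there and 155 to 339 elsewhere, and Rraga 88.4 against 154 to 274. Without that array and Z on replicate 3, r fell to between 0.425 and 0.660. Quantile normalization left r at 0.831 to 0.883.

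The genes most like Apoa1 were other abundant secreted products of hepatocytes: Ttr (r = 0.948), which carries thyroxine, Alb (0.935), Azgp1 (0.908), Serpinc1 (0.896), the antithrombin gene, and Serpina1b (0.879), a mouse alpha1-antitrypsin paralog. Without M on replicate 1 and M off replicate 3, r was 0.740 to 0.914. After quantile normalization the same 5 correlations lay between -0.303 and 0.272. These values are descriptions over arrays that share their scaling, and carry no test.

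Genes that act with the apolipoproteins were read from 5 lists, and none of their members passed the adjusted threshold in Z on against Z off, M on against M off, Z on against M on or Z off against M off. Each list is described by 1 probe set per gene and set beside the median of all 12393 genes, which was -0.03 in Z on against Z off, -0.0023 in M on against M off, -0.01 in Z on against M on and 0.02 in Z off against M off.

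Other apolipoproteins and exchangeable lipoprotein proteins had 14 of 18 genes measured. In Z on against Z off 10 were higher and 4 lower (median 0.24), with 2 at an unadjusted p under 0.05, where 6.36% of all genes were. Saa3, an acute phase protein carried on HDL, read 185, 129.9 and 177 in Z on, 90, 68.1 and 67.8 in Z off, and 34.6, 77.6 and 45.1 in M on. The Z on arrays lay above all others. In Z on against Z off 11.8% of all probe sets had groups that did not overlap. Saa1 and Saa2 of the same list did not show this pattern. Saa1 read 532, 442 and 6737 in Z on and 1054, 1589.5 and 588 in Z off. Saa2 read 100, 91.5 and 4508 in Z on and 227, 187 and 204 in Z off. Both were highest on Z on replicate 3. Saa4 read 3818, 3102 and 4331 in Z on and 3487, 2802 and 2333 in Z off. Saa3 in Z on against M on differed by 1.71 (SE 0.30, limma adjusted p = 0.166) and in Z on against Z off by 1.12 (adjusted p = 0.627), so neither was called. Apod, the other gene with an unadjusted p under 0.05, was dim at 19.0 ± 7.2 in Z on and 7.17 ± 3.02 in Z off. In M on against M off 4 were higher and 10 lower (median -0.04), in Z off against M off 6 and 8 (-0.04), and in Z on against M on 8 and 6 (0.24).

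Assembly and secretion of Apob particles had 15 of 18 genes measured. In Z on against Z off 7 were higher and 8 lower (median -0.09), in M on against M off 9 and 6 (0.08), and in Z off against M off 9 and 6 (0.07). Between Z on and M on 2 were higher and 13 lower (-0.08), none at an unadjusted p under 0.05. Mttp, the microsomal transfer protein that loads lipid onto Apob, read 982, 1088 and 1229 in Z off and 763, 879.7 and 845 in M off, a difference of 0.40 (SE 0.16, limma adjusted p = 0.60). All Z off arrays lay above all M off arrays. In that comparison 15.1% of all probe sets had groups that did not overlap. Plin2, which coats lipid droplets, read 4225, 3635 and 3212 in Z off and 2020.3, 1857 and 2107 in M off, without overlap, a difference of 0.88 (SE 0.18, limma adjusted p = 0.258). In Z on Plin2 read 2006, 2851 and 2540.2, -0.59 against Z off (adjusted p = 0.671). Tm6sf2, a factor in particle lipidation, differed by 0.52 in M on against M off (limma adjusted p = 0.960).

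Receptors and uptake had 9 of 12 genes measured, with 5 higher and 4 lower in Z on against Z off (median 0.05), 2 and 7 in M on against M off (-0.06), 3 and 6 in Z off against M off (-0.12) and 4 and 5 between Z on and M on (-0.03). Cd36, a fatty acid translocase, read 177, 144 and 137 in Z off and 441, 269.9 and 639.8 in M off, a difference of -1.48 (SE 0.32, limma adjusted p = 0.292). The groups were apart, as they were for 15.1% of all probe sets. Z on at 236 to 281 also lay below M on at 432 to 746, where 12.1% of all probe sets had groups apart. Vldlr, a receptor of triglyceride-rich particles, differed by -1.14 in Z off against M off (limma adjusted p = 0.434), and Lsr, a receptor of remnants, by -0.65 in Z on against Z off (adjusted p = 0.671).

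Lipases, remodelling and efflux had 14 of 17 genes measured, with 6 higher and 8 lower in each of Z on against Z off (median -0.06), M on against M off (-0.03) and Z off against M off (-0.08). Between Z on and M on 5 were higher and 9 lower (-0.07). Angptl8, a hepatic inhibitor of lipoprotein lipase made after feeding, read 1236, 1701 and 1229 in M on and 585, 231 and 315 in M off. In M on against M off 10.5% of all probe sets had groups that did not overlap. For Angptl8 all M on arrays lay above the other 9, which reached 585 at most. The difference was 1.97 (SE 0.38, limma adjusted p = 0.311) in M on against M off and -1.92 between Z on and M on (adjusted p = 0.260). Lpl, lipoprotein lipase itself, differed by -0.64 in on against off averaged over lines (limma adjusted p = 0.765).

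Transcription regulators of apolipoprotein genes had 23 of 25 genes measured. In Z on against Z off 11 were higher and 12 lower (median -0.04), in M on against M off 12 and 11 (0.0095), and in Z off against M off 8 and 15 (-0.20), with 5 of the lower ones at an unadjusted p under 0.05, where 7.48% of all genes were. Those 5 were Nr1d2, Foxo1, Srebf1, Nr5a2 and Ppargc1a. Nr1d2, a heme-binding repressor of the circadian clock, averaged 239.6 ± 80.1 in Z off, with 300.4 as its highest array, and 699.8 ± 31.1 in M off, a difference of -1.61 (SE 0.31, limma adjusted p = 0.189). Srebf1, a driver of lipogenic genes, averaged 991 ± 134 in Z off and 1829.7 ± 338 in M off (-0.88, limma adjusted p = 0.437). Foxo1, a mediator of the fasting response, averaged 139 ± 33 in Z off and 239 ± 34.2 in M off (-0.80, limma adjusted p = 0.390). Nr5a2 and Ppargc1a, a nuclear receptor and a coactivator, differed by -0.74 and -0.80.

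In Z on against Z off, Nr1d2 (1.59), Foxo1 (0.92) and Nr0b2 (-1.09), a corepressor induced by bile acids, had an unadjusted p under 0.05 and limma adjusted p-values of 0.443, 0.533 and 0.730. These comparisons share the Z off arrays, on which Alas2 also stood apart; the ribosomal control of 94 to 373 there overlapped the 227 to 768 of M on. Between Z on and M on 6 regulators were higher and 17 lower (median -0.09), with 3 of the lower ones at an unadjusted p under 0.05, where 6.45% of all genes were. Those 3 were Cebpa, a hepatocyte factor (-0.56, limma adjusted p = 0.610), Srebf1 (-0.60, adjusted p = 0.710) and Ppargc1a (-0.74, adjusted p = 0.714).

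**Figure D5:**
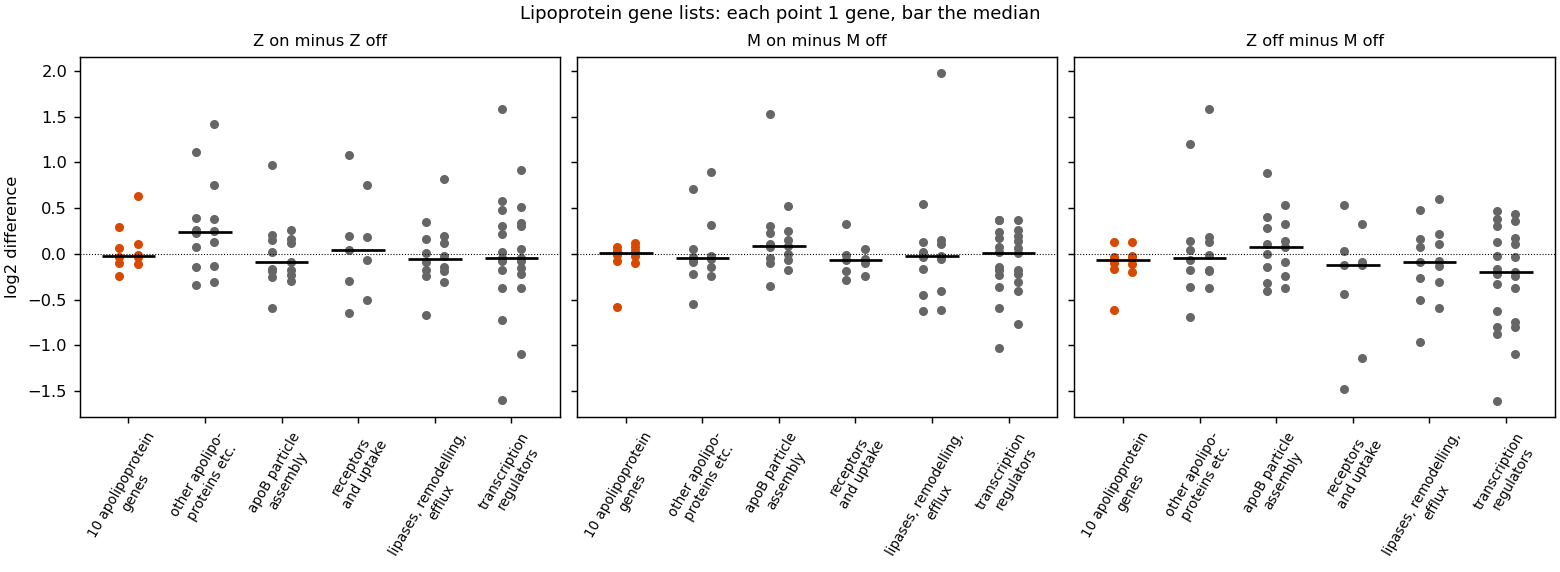
Log2 difference of each gene (points, 1 probe set per gene) in the 10 apolipoprotein genes (orange) and in the 5 lists of related genes (grey), with bars at list medians, for 3 comparisons. The apolipoprotein points lie near 0 except Apoa4 and Apob, and the medians of the related lists stay within 0.24 of 0.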

How the data were processed

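Liver RNA of 12 mice was hybridised to 1-colour Affymetrix mouse arrays. The deposited values are linear signal intensities per probe set. RMA is named per the submitters' processing notes, but the deposited intensities are not on a log scale, and have equal trimmed means (150.07 to 150.08, 2% trimmed at each end) with unequal medians (38.7 to 47), and their software was not given in the sources used here. Signals were converted to log2 after 1 zero was set to 0.1. Of 22690 probe sets, 64 controls were left out; 20380 had 1 symbol, 691 several and 1555 none in the platform annotation.

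One mean per group was fitted with limma 3.58.1 (R 4.3.3), tested with simulated data, and p-values were adjusted over 22626 probe sets. Correlations used Python 3.11.15. Named genes were all members, then list genes with an unadjusted p under 0.05 and the 5 genes most like the member with the widest span of group means and most like Apoa1. Members and lists were chosen with earlier results of these data known. Replicates are biological per the labels. Over all probe sets above the median level, same-numbered arrays of different groups deviated together by r over 0.1 in 3 of 18 pairs (r -0.083 to 0.161), so the fit had no block; the brightest signals, however, were highest on replicate 1 in all 4 groups, so correlations were also tested within replicate numbers. Alternatives were other scalings, variance models, filters, probe set averages, array weights, a replicate block and leaving out each array.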

Additional observations from a re-analysis of the deposited data

How the results depend on the processing

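The number of apolipoprotein probe sets passing an adjusted p of 0.05 was recomputed for the 7 comparisons under 22 settings, 151 counts in all, and was 0 each time (limma); the lowest adjusted p of a member was 0.472. With the replicate block the count was 0 in all 7 comparisons, and leaving out each array in turn it ranged from 0 to 0. Fits of only the groups compared could not be made for the comparisons that need all 4 groups. An unadjusted p under 0.05 appeared in 7 of the counts. Leaving out M on replicate 3 gave it to Apoa4 in Z on against Z off (0.63, limma adjusted p = 0.807), Z off against M off (-0.61, adjusted p = 0.659), Z against M averaged over states (-0.54 and -0.74 on the 2 probe sets, adjusted p = 0.518 and 0.582) and on against off averaged over lines (0.56, adjusted p = 0.681). Leaving out M on replicate 1 gave it to Apob in Z on against M on (1.34, limma adjusted p = 0.726). An intensity trend with robust variances gave it to Apoa4 in Z on against Z off (limma adjusted p = 0.690) and to Apoa5 between Z on and M on (adjusted p = 0.640). Centring on the brightest 1% of probe sets was added after seeing the data, as were correlations within replicate numbers, which took the pairs of genes that passed from 16 to 0 of 45, and left 2 of 10 genes, Apoe and Apoa1, past the threshold against the brightest signals. No scaling moved the median of all probe sets by 0.1 or more on the log2 scale; the largest shift was -0.058. Counts over all probe sets differed more: in Z against M averaged over states 20 passed in the reported fit, 110 with an intensity trend, 87 among probe sets above the median level, 41 with 16 added before log2, and 12 with the replicate block.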
